A study of Mus musculus with 12 samples.

Results

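The genes described here are 49 genes of DNA replication and S phase, taken by symbol from a list that covers each step from origin licensing to the supply of nucleotides. The rule uses their symbols and no measured level, but the genes were chosen with earlier results of these data known. All 49 were found once each among the 52636 gene identifiers counted, and all 49 were among the 15859 genes that passed the filter on low counts. They fall into 7 roles: 12 genes of origin licensing, 7 of helicase activation, 9 of the replicative polymerases, 8 of the sliding clamp, its loader and Okazaki fragments, 5 of nucleotide supply, 5 of chromatin, methylation and base repair, and 3 G1/S regulators.

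Total RNA, depleted of ribosomal RNA, of 12 cultures of mouse embryonic salivary gland was sequenced, and reads were counted per gene. Glands were taken at E13.5 (the embryonic day) and grown for 2 days on filter membranes at the surface of the medium. Wild-type glands received the solvent DMSO (3 libraries) or SU5402 at 2.5 µM, an inhibitor of FGF receptor kinases (FGFRi, 3 libraries). Untreated glands of a K14Cre-Fgfr2b cross gave 2 WT, 2 HET and 2 HOM libraries, HOM being labelled as lacking Fgfr2b and the others being its littermate controls. Fgfr2b is the epithelial splice form of FGF receptor 2, and the keratin 14 promoter drives Cre in epithelium, whereas a dissolved inhibitor is not limited to 1 tissue. All 5 groups share the age and the culture. The labels state neither whether the WT glands carry Cre nor whether a library holds glands of 1 embryo or a pool, so that p-values measure the spread between these libraries, which may be technical in part.

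Before S phase, the origin recognition complex, Cdc6 and Cdt1 load the MCM helicase onto DNA, and geminin (Gmnn) blocks further loading once S phase has begun. Cdc45 and the GINS complex then turn the helicase on, the polymerases copy both strands with the clamp PCNA, and the new DNA is packed into chromatin and methylated. Many of these genes are transcribed under E2F factors, which pocket proteins of the Rb family hold back in resting cells. In the developing salivary gland, FGF signals from the mesenchyme are known to drive growth of the epithelial end buds.

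Total counts ran from 6043701 to 22322182 per library, and each of the 49 genes had at least 13 counts in every library. For 38 of them the lowest count was 100 or more. The labels name no molecular identifiers, so reads need not be independent molecules. Levels are given as CPM, counts relative to the library total after TMM. TMM is edgeR's scaling by a factor per library, which assumes that most genes do not differ. It does not remove shifts in tissue composition. Counts over all of Fgfr2 (ENSMUSG00000030849) do not separate the deleted exon and so do not check the HOM label: its level lay between 73.9 and 80.6 CPM with FGFRi and between 86.2 and 101 elsewhere. Markers of the labelled tissue were present in all libraries. The progenitor factors Sox10 and Sox9 had at least 85.9 and 150.1 CPM in every library. None of 15 genes of epithelium in general was at 0 counts in any library. The keratins Krt14 and Krt5 varied widely, also within DMSO. Krt14 ran from 54.5 CPM (HOM 1) to 197 (DMSO 3), with 60.5 in DMSO 1. Krt5 ran from 13.4 (HOM 1) to 194 (DMSO 3), with 22.9 in DMSO 1. From Xist and Y-linked genes, both HOM libraries read as female and all of their WT and HET controls as male, so that sex and the HOM genotype cannot be told apart. The FGFRi libraries all read as female, and 1 of the 3 DMSO libraries (DMSO 2) as male. With sex as a covariate, 22 of the 49 genes were lower with FGFRi, where 2153 of all genes were called in either direction. Sex varied within DMSO alone, so that this fit amounts to leaving out DMSO 2. Leaving out DMSO 2 also gave 22 lower genes, with 2161 of all genes called. All libraries carry the same batch label.

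The sequences before the start sites are shown first because E2F factors are the best known regulators of these promoters. Promoter windows of 300 bases, from 250 before to 50 after the annotated start, were found for 40 of the 49 genes in the RefSeq table for GRCm38.p6. They were searched on both strands for 4 E2F-type words (TTTCCCGC, TTTGGCGC, TTTCGCGC and TTTGCCGC) and for the CHR element TTTGAA, which is known from promoters of mitotic genes. An E2F-type word occurred in 16 of the 40 genes (40.0%), in 10 of 37 other replication genes (27.0%), in 1 of 21 mitosis genes (4.8%) and in 704 of all 27025 genes of the table (2.6%). The CHR element occurred in 17.5% of the 40, in 76.2% of the mitosis genes and in 20.2% of all genes. Mcm6 held 3 E2F-type words, of which one pair overlaps. Mcm3, Mcm5, Mcm7 (at 1 of its 2 listed starts), Rfc3 and Dnmt1 held 2 each, and Orc1, Cdc6, Cdt1, Gins3, Pola1, Pold1, Pold3, Pole2, Lig1 and Uhrf1 held 1 each. By role the share was highest for licensing, at 7 of 10 genes (70.0%), and 0 of 5 nucleotide supply genes held a word. Among the genes that were lower with FGFRi in the comparison below, 12 of 24 (50%) held one, and among those not called 4 of 16 (25%), numbers given with no test. These are matches of letters, and no binding was measured.

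**Figure D1:**
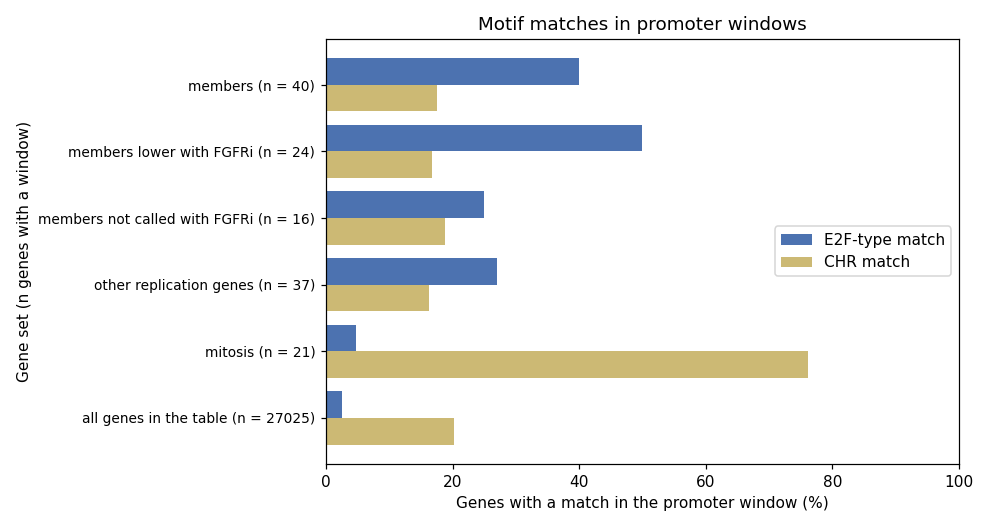
Percentage of genes (x axis) with at least 1 E2F-type word (blue) or CHR element (yellow) in the 300-base promoter window, by gene set (y axis, n genes with a window). The replication genes stand at 40.0% for the E2F-type words and the mitosis genes at 76.2% for the CHR element, against 2.6% and 20.2% of all genes.

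Printed below are the 250 bases before the start, 5′ to 3′ on the strand of the gene, with E2F-type words in capitals. Mcm5, Mcm6 and Cdc6 are shown as licensing genes that were lower with FGFRi and hold such words, Pola1 as a gene that holds one and did not pass the test, and Rrm2 and Ung as genes that were lower and hold none in the window. Overlapping words appear as 1 longer run of capitals. The pieces lie, in GRCm38.p6, at chr8:75109259-75109508, plus strand (Mcm5), chr1:128359706-128359955, minus strand (Mcm6), chr11:98907901-98908150, plus strand (Cdc6), chrX:93632156-93632405, minus strand (Pola1), chr12:24708004-24708253, plus strand (Rrm2) and chr5:114130185-114130434, plus strand (Ung), each directly upstream of the annotated start.
Mcm5: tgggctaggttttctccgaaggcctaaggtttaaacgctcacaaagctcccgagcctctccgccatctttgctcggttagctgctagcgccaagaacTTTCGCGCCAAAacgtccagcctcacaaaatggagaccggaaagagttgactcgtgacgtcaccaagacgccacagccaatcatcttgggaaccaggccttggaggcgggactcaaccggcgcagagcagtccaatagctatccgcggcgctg
Mcm6: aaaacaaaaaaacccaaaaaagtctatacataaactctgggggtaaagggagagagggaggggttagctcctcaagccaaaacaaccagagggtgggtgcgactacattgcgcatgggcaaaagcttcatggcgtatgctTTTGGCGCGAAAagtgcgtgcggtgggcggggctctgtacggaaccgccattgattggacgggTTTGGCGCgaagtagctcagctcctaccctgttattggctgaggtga
Cdc6: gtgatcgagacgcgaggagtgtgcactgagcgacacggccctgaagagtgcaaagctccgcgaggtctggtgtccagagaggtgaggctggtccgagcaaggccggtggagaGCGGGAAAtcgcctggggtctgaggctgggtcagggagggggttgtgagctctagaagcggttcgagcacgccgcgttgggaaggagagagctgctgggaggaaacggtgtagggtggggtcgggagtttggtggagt
Pola1: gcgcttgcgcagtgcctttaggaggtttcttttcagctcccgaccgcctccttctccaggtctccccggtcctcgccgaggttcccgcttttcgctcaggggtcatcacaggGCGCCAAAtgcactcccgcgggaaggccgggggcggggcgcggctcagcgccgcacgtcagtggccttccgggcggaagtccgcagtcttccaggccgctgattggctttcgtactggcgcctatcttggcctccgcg
Rrm2: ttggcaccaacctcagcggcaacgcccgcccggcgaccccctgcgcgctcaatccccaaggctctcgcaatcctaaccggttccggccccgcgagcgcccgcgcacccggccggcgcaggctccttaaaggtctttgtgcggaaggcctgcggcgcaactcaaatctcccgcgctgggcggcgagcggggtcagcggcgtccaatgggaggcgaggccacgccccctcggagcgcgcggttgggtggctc
Ung: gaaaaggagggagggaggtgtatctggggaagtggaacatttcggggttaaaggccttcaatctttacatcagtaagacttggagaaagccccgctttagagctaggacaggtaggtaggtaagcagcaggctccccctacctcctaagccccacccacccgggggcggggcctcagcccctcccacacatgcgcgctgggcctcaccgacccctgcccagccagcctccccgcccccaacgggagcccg

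The first comparison asks how the genes differed between glands with the FGF receptor inhibitor and glands with the solvent. With FGFRi, 27 of the 49 genes were lower and 0 were higher at an adjusted p under 0.05, where 10.7% of all tested genes were lower and 9.73% higher (edgeR's quasi-likelihood test, Benjamini-Hochberg adjustment over all 15859 genes). The changes were moderate: the ratio of FGFRi to DMSO ran from 0.658 for Gmnn to 0.856 for Mcm6 among the 27 genes. Of all 49, 47 had a negative log2 change, against 52.0% of all genes, and the median log2 change was -0.29 against -0.02 over all genes. In 36 of the 49 every FGFRi library lay below every DMSO library (20.5% of all genes), and in 26 every FGFRi library lay below the 9 libraries of all other groups (8.25% of all genes). The 22 genes that did not pass the test ranged from -0.48 (Fen1) to 0.03 (Orc1).

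Summed over the 49 genes, the level was 3349, 3130 and 3065 CPM in the 3 DMSO libraries and 2394, 2604 and 2630 in the 3 FGFRi libraries. Group means were 3181 ± 149 (SD, n = 3) and 2543 ± 129 (SD, n = 3), and the groups did not overlap on this scale. As a share of all counts, without TMM, the groups overlapped: the 49 genes took 0.348, 0.318 and 0.298% with DMSO and 0.183, 0.321 and 0.281% with FGFRi. In bulk tissue, fewer cells in S phase and less of these RNAs per cell cannot be told apart. FGFRi 1 was the lowest of the FGFRi libraries for 32 of the 49 genes (38.2% of all genes) and the lowest of all 12 libraries for 29 (18.5% of all genes). FGFRi 1 also had the lowest share of counts in the 49 genes, and the highest shares in mitochondrial genes (14.2%, against 3.93% to 13.6% elsewhere) and in genes annotated as rRNA or known to collect its reads (26.5%, against 12.4% to 23.4%). The part of these shares in its low levels was not tested. Without FGFRi 1, 16 genes were lower and the median was -0.24, where 1896 of all genes were called in either direction. Scaled by library totals in place of TMM, 0 genes were called with a median of -0.26, where 1303 of all genes were called after adjustment. At an unadjusted p under 0.05 (edgeR), 9 were lower and 0 higher. The share of all genes at that unadjusted threshold was not counted with this scaling.

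**Figure D2:**
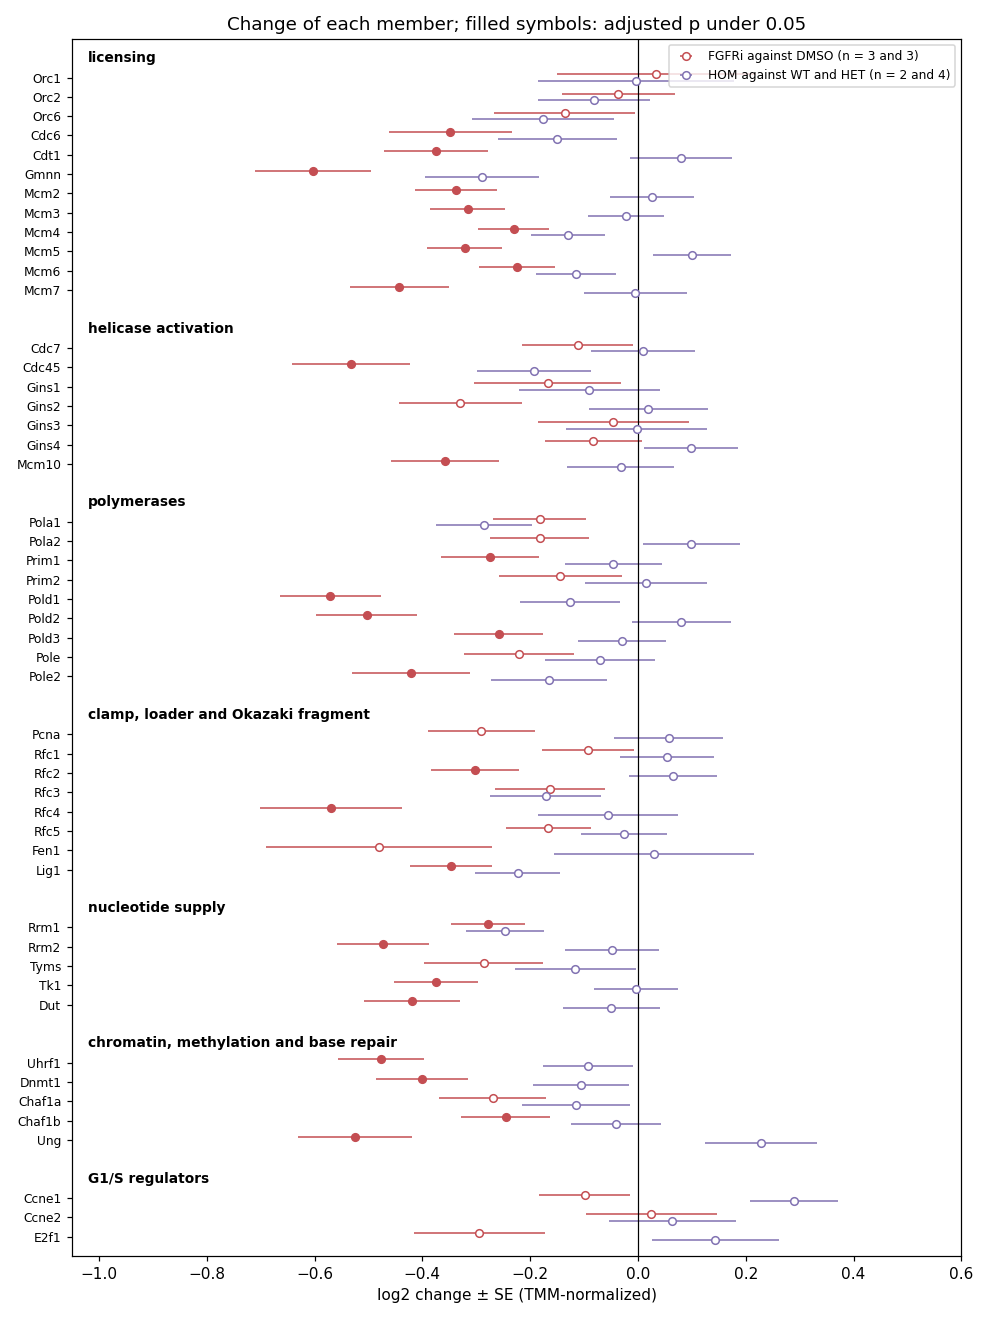
Log2 change ± SE (x axis) of each of the 49 genes (y axis, by role) for FGFRi against DMSO (red) and for HOM against WT and HET (purple), with filled symbols for an adjusted p under 0.05. Filled symbols are all red and lie between -0.60 and -0.22, and no purple symbol is filled.

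Of the origin licensing genes, 9 of 12 were lower, with a median of -0.32. Geminin, the inhibitor of Cdt1, had 25.8, 24.9 and 21.7 CPM in the DMSO libraries and 14.1, 16.2 and 16.8 in the FGFRi libraries. All 3 FGFRi libraries lay below all others in the series for this gene, and its log2 change of -0.60 (SE 0.11, adjusted p = 0.00127) was the lowest of the 49. Its partner Cdt1 had 55.6, 44.9 and 43.8 CPM with DMSO and 34.7, 39.2 and 36.5 with FGFRi, a log2 change of -0.37 (SE 0.10, adjusted p = 0.0124). Cdc6, which recruits Cdt1 and the helicase to the origin complex, stood at 24.5, 24.8 and 25.5 CPM with DMSO and 16.2, 21.7 and 20.0 with FGFRi and changed by -0.35 (SE 0.11, adjusted p = 0.0425). The Cdc6 libraries did not overlap. The Cdc6 call was lost without any one of DMSO 1, DMSO 2, DMSO 3, FGFRi 1, FGFRi 3, WT 1 or WT 2 (highest adjusted p = 0.196). The Cdt1 call was lost without any one of DMSO 1 or FGFRi 1 (highest adjusted p = 0.0678). The 3 subunits of the origin recognition complex among the 49 did not pass: Orc1 differed by 0.03, Orc2 by -0.04 and Orc6 by -0.14, each with overlapping libraries. Nor did Orc3, Orc4 and Orc5 from the list of other replication genes, at 0.22, 0.16 and -0.20.

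All 6 subunits of the MCM helicase, the ring that unwinds DNA, were lower with FGFRi. Mcm7 had 164, 137 and 133 CPM with DMSO and 93.8, 109 and 115 with FGFRi, and its log2 change of -0.44 (SE 0.09, adjusted p = 0.00360) was the largest fall of the 6. Mcm6 had the smallest fall, with 175, 172 and 162 CPM with DMSO against 134, 151 and 150.3 with FGFRi, a log2 change of -0.22 (SE 0.07, adjusted p = 0.0369). For Mcm5 the values were 132, 129 and 120 CPM with DMSO and 97.4, 104 and 104 with FGFRi, and the change was -0.32 (SE 0.07, adjusted p = 0.00479). Mcm2 fell by 0.34, Mcm3 by 0.32 and Mcm4 by 0.23 on the log2 scale, and none of the 6 had overlapping libraries. Per kilobase of exon, with all annotated exons of a gene joined, the 6 subunits stood between 19.0 (Mcm2) and 37.5 (Mcm4) CPM per kb in DMSO. Comparisons between genes on this scale are rough, because the joined length can exceed that of the transcripts expressed. The median of the 49 genes on that scale was 9.196, the highest was Uhrf1 at 54.0 and the lowest Fen1 at 1.67. The Fen1 level is limited by the exon overlap described below. Mcm3, Mcm5 and Mcm7 kept their calls in all 12 fits that each left out 1 library. The Mcm2 call was lost without FGFRi 1 (adjusted p = 0.0530). The Mcm4 call was lost without any one of DMSO 1, FGFRi 1, FGFRi 2, WT 1 or WT 2 (highest adjusted p = 0.156). The Mcm6 call was lost without any one of DMSO 1, DMSO 2, FGFRi 1, FGFRi 2, WT 1 or WT 2 (highest adjusted p = 0.247).

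Of 7 genes that activate the helicase, 2 were lower. Cdc45, a subunit of the active helicase, had 24.8, 21.9 and 20.4 CPM with DMSO and 13.95, 16.6 and 15.3 with FGFRi, with all FGFRi libraries below every other library, and changed by -0.53 (SE 0.11, adjusted p = 0.00322). Mcm10, which binds the helicase at origin firing, had 39.6, 32.2 and 34.0 CPM with DMSO and 31.2, 26.5 and 25.3 with FGFRi and changed by -0.36 (SE 0.10, adjusted p = 0.0203). The Mcm10 call was lost without any one of DMSO 1, FGFRi 2 or FGFRi 3 (highest adjusted p = 0.0932). The 4 GINS subunits did not pass, with log2 changes of -0.17 (Gins1), -0.33 (Gins2), -0.05 (Gins3) and -0.08 (Gins4). For Gins2 the libraries did not overlap and the adjusted p was 0.0534. The kinase Cdc7, which phosphorylates the MCM ring, differed by -0.11 with overlapping libraries. Whether Cdc45 differed from the GINS genes in its change was not tested.

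Among the polymerase genes, 5 of 9 were lower, 3 of them subunits of polymerase delta, which extends the lagging strand. Its catalytic subunit Pold1 had 59.1, 55.5 and 47.3 CPM with DMSO and 34.5, 36.8 and 37.4 with FGFRi. The FGFRi values were the lowest of the series, and the log2 change was -0.57 (SE 0.09, adjusted p = 0.000648). Pold2 had 49.02, 49.1 and 42.2 CPM with DMSO and 29.9, 34.0 and 34.6 with FGFRi, again without overlap with any other library, and changed by -0.50 (SE 0.09, adjusted p = 0.00167). The accessory subunit Pold3 fell by 0.26 on the log2 scale (adjusted p = 0.0366). The Pold3 call was lost without any one of DMSO 1, DMSO 2, DMSO 3, FGFRi 1, FGFRi 2, WT 1 or WT 2 (highest adjusted p = 0.205). Polymerase epsilon, which copies the leading strand, had 1 called subunit, Pole2. It had 14.6, 15.3 and 16.1 CPM with DMSO and 11.2, 11.6 and 11.5 with FGFRi, a change of -0.42 (SE 0.11, adjusted p = 0.0131), while the catalytic subunit Pole differed by -0.22 (adjusted p = 0.146) with overlapping libraries. Its small subunits Pole3 and Pole4, of the other replication genes, did not pass either, at -0.08 and -0.30. The Pole2 call was lost without FGFRi 1 (adjusted p = 0.0513). In the primase complex, which starts each new strand, the catalytic subunit Prim1 fell by 0.27 on the log2 scale (adjusted p = 0.0445), and Pola1, Pola2 and Prim2 did not pass, at -0.18, -0.18 and -0.14. The Prim1 call was lost without any one of DMSO 1, DMSO 2, DMSO 3, FGFRi 1, FGFRi 2, WT 1 or WT 2 (highest adjusted p = 0.251).

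The clamp, its loader and the Okazaki fragment enzymes held 3 lower genes of 8. Rfc4, a small subunit of the loader that opens the clamp, had 18.6, 18.2 and 18.4 CPM with DMSO and 10.09, 11.2 and 14.6 with FGFRi. Its FGFRi libraries were spread more widely than those of DMSO, FGFRi 3 being the highest, and the log2 change was -0.57 (SE 0.13, adjusted p = 0.00677). Another loader subunit, Rfc2, fell by 0.30 on the log2 scale (adjusted p = 0.0168), and Rfc1, Rfc3 and Rfc5 did not pass, at -0.09, -0.16 and -0.17. The Rfc2 call was lost without any one of DMSO 1, FGFRi 1 or FGFRi 2 (highest adjusted p = 0.0774). DNA ligase 1 (Lig1), which seals the fragments, had 125, 117 and 111 CPM with DMSO and 87.2, 92.9 and 97.4 with FGFRi and changed by -0.35 (SE 0.08, adjusted p = 0.00503). The clamp itself, Pcna, had 109, 107 and 127 CPM with DMSO and 81.3, 98.1 and 99.2 with FGFRi, and its change of -0.29 missed the threshold at an adjusted p of 0.0501, with no overlap of the groups. Pcna has a processed pseudogene, Pcna-ps2, 99.2% identical over 781 bases, which had 1263 counts in all, so that reads of the pair may have been split. The flap endonuclease Fen1 differed by -0.48 (adjusted p = 0.124), without overlap of the groups and with the largest SE of the 49 genes (0.21). Of its exon length, 78.8% is shared with the antisense gene Gm10143, which had 59 counts in all, against 701 for Fen1. Reads of opposite strands may have been joined, or reads of shared exons left out of both genes. The use of strand in counting is not given in the sources used here. In all, 15 of the 49 genes overlap exons of a gene on the other strand, Gins2 over 67.3% of its exon length (Gse1, with 5240 counts against 2792), Chaf1a over 52.5% (Ubxn6, with 5909 against 9464) and Orc2 over 29.8% (Nif3l1, with 2473 against 3851).

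Nucleotide supply genes were lower in 4 of 5 cases, with a median of -0.38. Rrm2, the small subunit of ribonucleotide reductase that is made in S phase, had 127, 116 and 114 CPM with DMSO and 76.0, 84.3 and 95.1 with FGFRi. FGFRi 1 was lowest and FGFRi 3 highest of the treated libraries, all 3 were below every other library, and the log2 change was -0.47 (SE 0.09, adjusted p = 0.00130). Rrm1, the large subunit, had 198, 197 and 182 CPM with DMSO and 148, 165 and 163 with FGFRi and changed by -0.28 (SE 0.07, adjusted p = 0.0100). The Rrm1 call was lost without FGFRi 1 (adjusted p = 0.0837). Thymidine kinase 1 (Tk1), which salvages thymidine, had 82.8, 77.9 and 77.3 CPM with DMSO and 54.7, 67.3 and 60.7 with FGFRi and changed by -0.38 (SE 0.08, adjusted p = 0.00346). In Tk1, too, FGFRi 1 was lowest, and the groups did not overlap. Dut, the enzyme that clears dUTP, had 64.9, 68.5 and 68.3 CPM with DMSO and 42.6, 53.8 and 53.2 with FGFRi and changed by -0.42 (SE 0.09, adjusted p = 0.00390). Thymidylate synthase (Tyms) had 37.4, 55.6 and 47.4 CPM with FGFRi against 57.8, 58.3 and 56.8 with DMSO, with FGFRi 2 just under the DMSO range, and its change of -0.29 did not pass (adjusted p = 0.0810).

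Chromatin, methylation and base repair genes were lower in 4 of 5 cases and had the lowest median of the 7 roles, -0.40. Uhrf1, which brings the maintenance methyltransferase to newly copied DNA, had 250.1, 221 and 219 CPM with DMSO and 149.9, 169 and 175 with FGFRi, a log2 change of -0.48 (SE 0.08, adjusted p = 0.000745). The methyltransferase itself, Dnmt1, had 318, 267 and 262 CPM with DMSO and 196, 229.8 and 213 with FGFRi and changed by -0.40 (SE 0.08, adjusted p = 0.00391). DMSO 1 was the highest library of the series for both genes, and neither overlapped between the groups. Ung, which removes uracil from DNA, had 35.3, 33.5 and 36.8 CPM with DMSO and 19.6, 25.8 and 26.3 with FGFRi and changed by -0.53 (SE 0.11, adjusted p = 0.00292). Of the chromatin assembly factor that loads histones behind the fork, Chaf1b fell by 0.25 on the log2 scale (adjusted p = 0.0480), a call kept in 1 of the 12 fits that each left out 1 library (without FGFRi 3). In the other fits its adjusted p reached up to 0.276. Its partner Chaf1a differed by -0.27 (adjusted p = 0.0698).

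None of the 3 G1/S regulators was called, and their median of -0.10 was the one nearest to 0 among the roles. Cyclin E1 (Ccne1), a partner of the kinase that starts S phase, had 34.4, 31.6 and 34.5 CPM with DMSO and 31.4, 30.1 and 31.7 with FGFRi, with overlap. Cyclin E2 (Ccne2) differed by 0.02. E2f1, the transcription factor, had 31.7, 27.5 and 25.3 CPM with DMSO and 23.7, 20.8 and 24.1 with FGFRi, without overlap, and its change of -0.29 did not pass (adjusted p = 0.103).

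**Figure D3:**
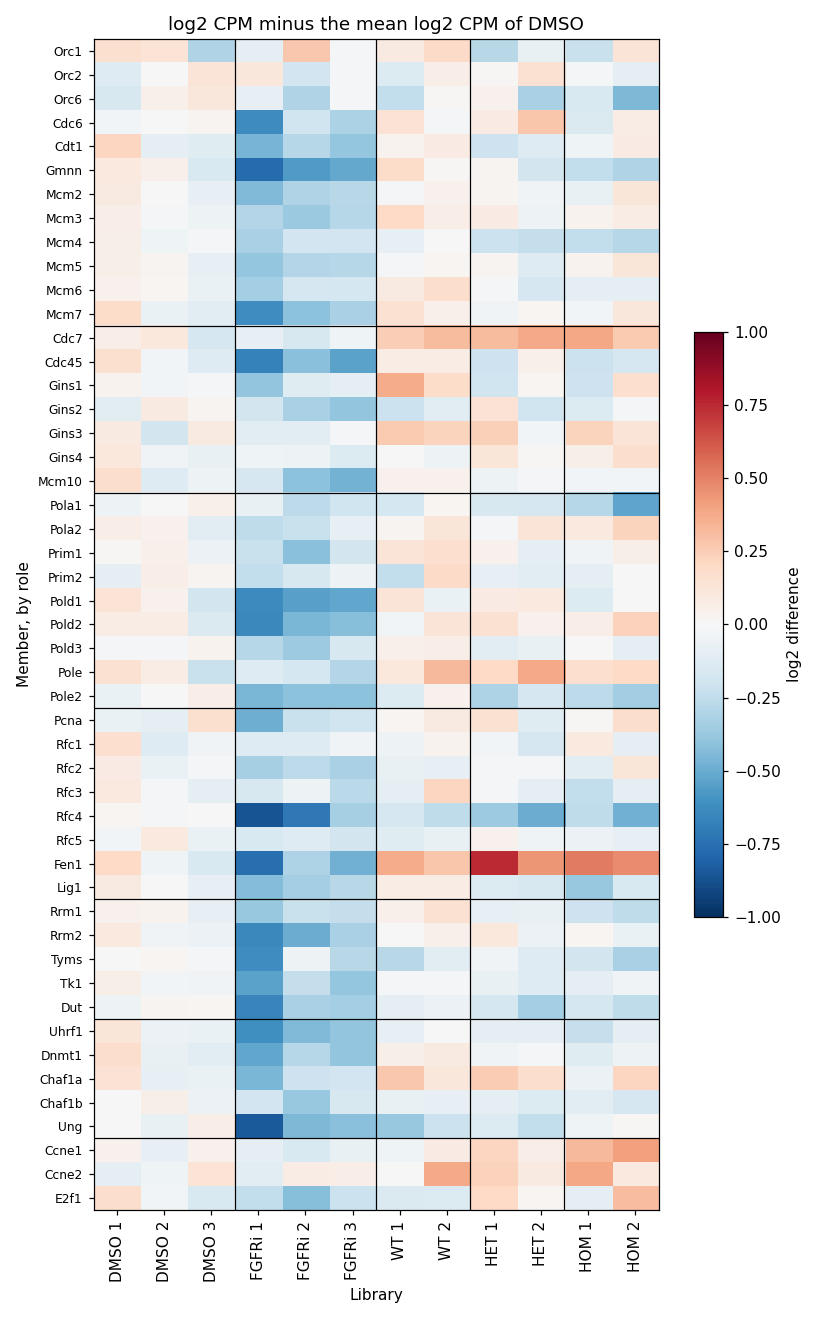
Log2 CPM of each gene (rows, by role) in each of the 12 libraries (columns), minus the mean log2 CPM of the DMSO libraries, from blue (lower) to red (higher) on a scale from -1 to 1. The 3 FGFRi columns are blue over most rows and bluest in FGFRi 1, while the rows of Orc1, Orc2, Ccne1 and Ccne2 show little blue there.

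Further genes of the pathway were listed for comparison. Of 46 other replication genes, 10 were lower and 0 higher, among them the fork protection gene Timeless (-0.34, adjusted p = 0.00743), the translocase Zranb3 (-0.42, adjusted p = 0.0121), the chromatin factor Atad2 (-0.28, adjusted p = 0.0161) and the nuclease Dna2 (-0.43, adjusted p = 0.0178). Of 17 other E2F and pocket protein genes, 3 were lower and 1 was higher. The lower ones were Mybl2 (-0.48, adjusted p = 0.00569), a partner of the complex that activates mitotic genes, and the E2F factors E2f8 (-0.34, adjusted p = 0.0131) and E2f3 (-0.22, adjusted p = 0.0448). The higher one was the pocket protein Rb1, with 8.75, 10.4 and 10.5 CPM in DMSO and 18.9, 16.1 and 20.2 in FGFRi libraries, a log2 change of 0.89 (SE 0.16, adjusted p = 0.00152). Of 25 mitosis genes, 15 were lower and 0 higher. The mitotic exit gene Cdc20 (-0.62, adjusted p = 0.000745), the checkpoint kinase Bub1b (-0.46, adjusted p = 0.00315), the kinase Aurkb (-0.37, adjusted p = 0.0118) and the proliferation marker Mki67 (-0.36, adjusted p = 0.0161) had the smallest p-values. The summed mitosis level was 2606, 2358 and 2257 CPM with DMSO and 1822, 1997 and 1970 with FGFRi. The ratio of the 49 replication genes to the mitosis genes was 1.29, 1.33 and 1.36 in DMSO and 1.31, 1.30 and 1.34 in FGFRi libraries, so that the ratios overlapped.

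Markers of tissue compartments moved with the inhibitor. Of 15 pan-epithelial genes 14 were lower and 0 higher, with a summed level of 2160 to 2437 CPM with FGFRi against 2975 to 3450 with DMSO. Of 17 mesenchyme genes 16 were higher and 0 lower, at 4270 to 5873 CPM against 2671 to 2783, with the highest value in FGFRi 1, the library that was lowest for most of the 49 genes. All 14 tested of 16 skeletal muscle genes were higher, at 208 to 899.7 CPM against 33.4 to 105. Twist2 in the mesenchyme list and 8 muscle genes had 0 counts in at least 1 library, and no marker of these 3 lists was at 0 in all 12. Of the 10 Schwann cell and glia genes 6 were higher and 2 lower, Sox10 (-0.66) and Erbb3 (-0.48). Sox10 was also named above as a progenitor factor of the gland. The summed level of that list was 269.5 to 309.8 CPM with FGFRi against 356.1 to 436.6 with DMSO. Of 10 neuronal genes 3 were higher. The part of these shifts in the lower levels of the replication genes was not tested, other than through the scaling that follows.

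Scaled to epithelial genes, most changes had the opposite sign: 40 of the 49 were positive. Here each library was scaled by the summed counts of the 15 pan-epithelial genes, and a level is given as counts per 1000 such counts. On this scale 16 of the 49 genes were higher with FGFRi and 0 lower, where 55.2% of all genes were higher and 0.965% lower. The median log2 change was 0.18 against 0.46 over all genes. The distance from the median of all genes was -0.28, as in the TMM fit. A change of scaling moves all genes by about the same amount. This distance is therefore kept by construction and is no check of the TMM result. Of the 16, 13 had not been called by TMM (Orc1, Orc2, Cdc7, Gins3, Gins4, Pola1, Pola2, Prim2, Rfc1, Rfc3, Rfc5, Ccne1 and Ccne2), and Mcm4, Mcm6 and Rrm1 had been lower. Mcm6 had 52.8, 49.97 and 54.6 counts per 1000 epithelial counts in DMSO and 62.1, 62.7 and 61.7 in FGFRi libraries, a change of 0.25 (SE 0.08, adjusted p = 0.0124). Gmnn had 7.79, 7.21 and 7.29 in DMSO and 6.54, 6.73 and 6.90 in FGFRi libraries and a negative change of -0.13 (SE 0.11, adjusted p = 0.301), the lowest of the 49. Rfc4 (-0.11, adjusted p = 0.499), Pold1 (-0.10, adjusted p = 0.403), Ung (-0.07, adjusted p = 0.610) and Cdc45 (-0.06, adjusted p = 0.668) followed, and none of them passed. The summed ratio of the 49 genes to the epithelial genes was 1.01, 0.908 and 1.03 in DMSO and 1.11, 1.08 and 1.08 in FGFRi libraries. Scaled to the mesenchyme list, all 49 genes were lower with a median of -1.18, against -0.90 over all genes. On that scale 11562 of the 15859 genes tested were called in either direction.

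**Figure D4:**
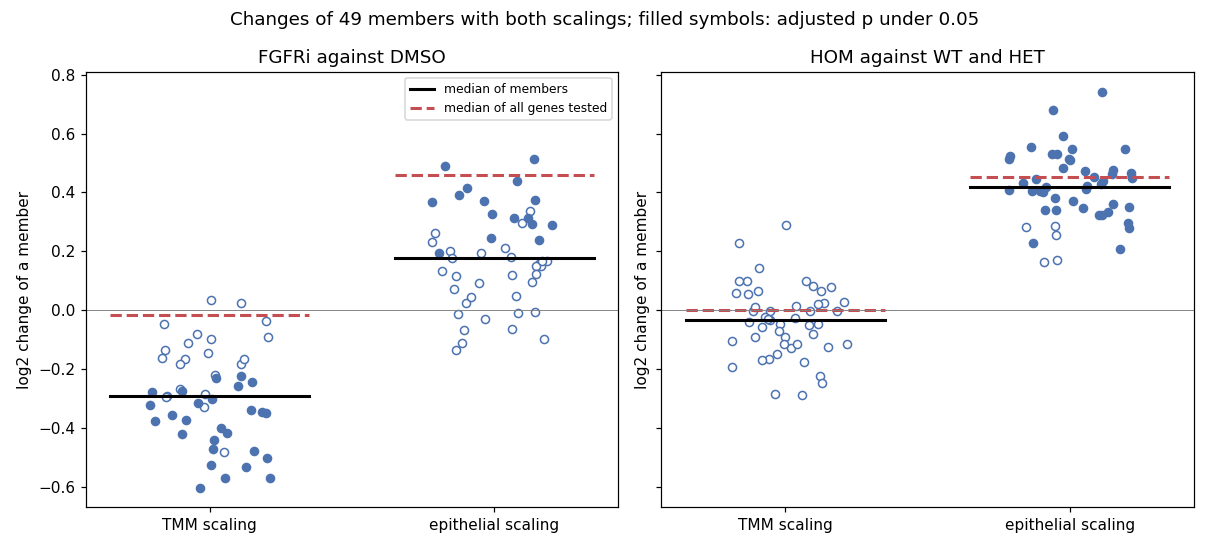
Log2 change of each of the 49 genes (points, y axis) with TMM and with epithelial scaling (x axis), for FGFRi against DMSO (left) and HOM against WT and HET (right), filled where the adjusted p was under 0.05. Solid lines mark the median of the 49 genes and dashed lines that of all genes tested. With FGFRi the solid line lies under the dashed line on both scales (-0.29 and -0.02 with TMM, 0.18 and 0.46 with epithelial scaling), while for HOM the lines lie close together. By construction, a change of scaling hardly moves the distance between the lines.

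The second comparison asks how the same genes stood in HOM glands against WT and HET glands of the cross. At an adjusted p under 0.05, 0 of the 49 genes were lower and 0 higher with edgeR's quasi-likelihood test (2.44% and 3.44% of all genes). At an unadjusted p under 0.05, 4 were lower and 2 higher, where 9.31% of all genes were lower and 10.09% higher. DESeq2 called 1 lower, and limma-voom called 2 lower and 1 higher. The share of all genes called was not counted in these fits. The median log2 change was -0.03 against 0.00 over all genes, and 32 of the 49 changes were negative. Summed levels were 3204 and 3308 CPM in WT, 3149 and 3033 in HET glands and 2996 and 3110 in HOM glands, and HOM overlapped HET. In 6 genes both HOM libraries lay below all 4 controls (12.2% of all genes) and in 3 above them (13.4% of all genes). The median SE of the 49 changes was 0.09 in this comparison and in that of FGFRi.

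The smallest adjusted p belonged to Ccne1, with 32.5 and 35.3 CPM in WT, 38.8 and 35.1 in HET glands and 42.0 and 44.4 in HOM glands. Both HOM values lay above all controls, and the change of 0.29 (SE 0.08, adjusted p = 0.0506) just missed the threshold. Rrm1 had 199 and 214 CPM in WT, 182 and 183 in HET glands and 166 and 161 in HOM glands with both HOM values below the controls and a change of -0.25 (SE 0.07, adjusted p = 0.0588). Pola1, the catalytic subunit of the priming polymerase, had 54.7 and 62.4 CPM in WT, 55.2 and 54.8 in HET glands and 50.6 and 42.8 in HOM glands with a log2 difference of -0.29 (SE 0.09, adjusted p = 0.0741). Gmnn was below the controls as well, at 27.3 and 24.2 CPM in WT, 24.5 and 21.2 in HET glands and 20.3 and 19.5 in HOM glands, with -0.29 (SE 0.11, adjusted p = 0.128). Against WT alone, Lig1 (-0.34, adjusted p = 0.0340) and Rrm1 (-0.33, adjusted p = 0.0232) were lower and Ccne1 (0.35, adjusted p = 0.0382) was higher, where 3.06% of all genes were lower and 4.50% higher. HOM against HET alone gave 0 calls among the 49 (0.876% and 0.618% of all genes).

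Epithelial markers were also lower in HOM glands. Of 15 pan-epithelial genes 8 were lower and 0 higher, with sums of 2059 to 2169 CPM in HOM against 3037 to 3152 in WT and 2603 to 2824 in HET. Of 17 mesenchyme genes 10 were higher, at 4522 to 4718 CPM against 2872 to 2998 in WT and 4065 to 4425 in HET, and of 14 tested muscle genes 9 were higher. In HET against WT, 6 of the 17 mesenchyme genes and 5 of the 14 muscle genes were higher as well. Of 10 Schwann cell and glia genes 4 were higher in HOM (Cdh19, Ednrb, Foxd3 and Gfra3) and 0 lower, and of 4 tested erythroid genes 1 was higher. Of 10 endothelial genes 0 were called, with summed levels of 22.5 to 25.98 CPM in HOM, 16.9 to 31.2 in HET and 11.2 to 11.4 in WT. The part of these shifts in the HOM comparison was not tested beyond the scaling. On the epithelial scale 44 of the 49 genes were higher in HOM and 0 lower, where 57.0% of all genes were higher and 0.555% lower, and the median was 0.42 against 0.45 over all genes. Ccne1 had the highest change on that scale, 0.74 (SE 0.10, adjusted p = 0.000155), and Gmnn and Pola1 did not pass, at 0.17 each. The summed ratio to epithelial genes was 1.46 and 1.43 in HOM libraries, against 1.12 and 1.17 in HET and 1.06 and 1.05 in WT libraries, with both HOM libraries above all others. The mitosis list had 1 lower gene of 25 in HOM, Prc1 (-0.36, adjusted p = 0.0212), a protein of the spindle midzone, and 23 negative changes. Of the other replication genes and of the other E2F and pocket protein genes 0 were called by edgeR, with 1 lower and 3 lower at an unadjusted p under 0.05. The ratio of the 49 genes to the mitosis genes was 1.23 and 1.35 in HOM libraries, against 1.22 and 1.19 in HET and 1.17 and 1.09 in WT libraries, without overlap of HOM and WT.

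**Figure D5:**
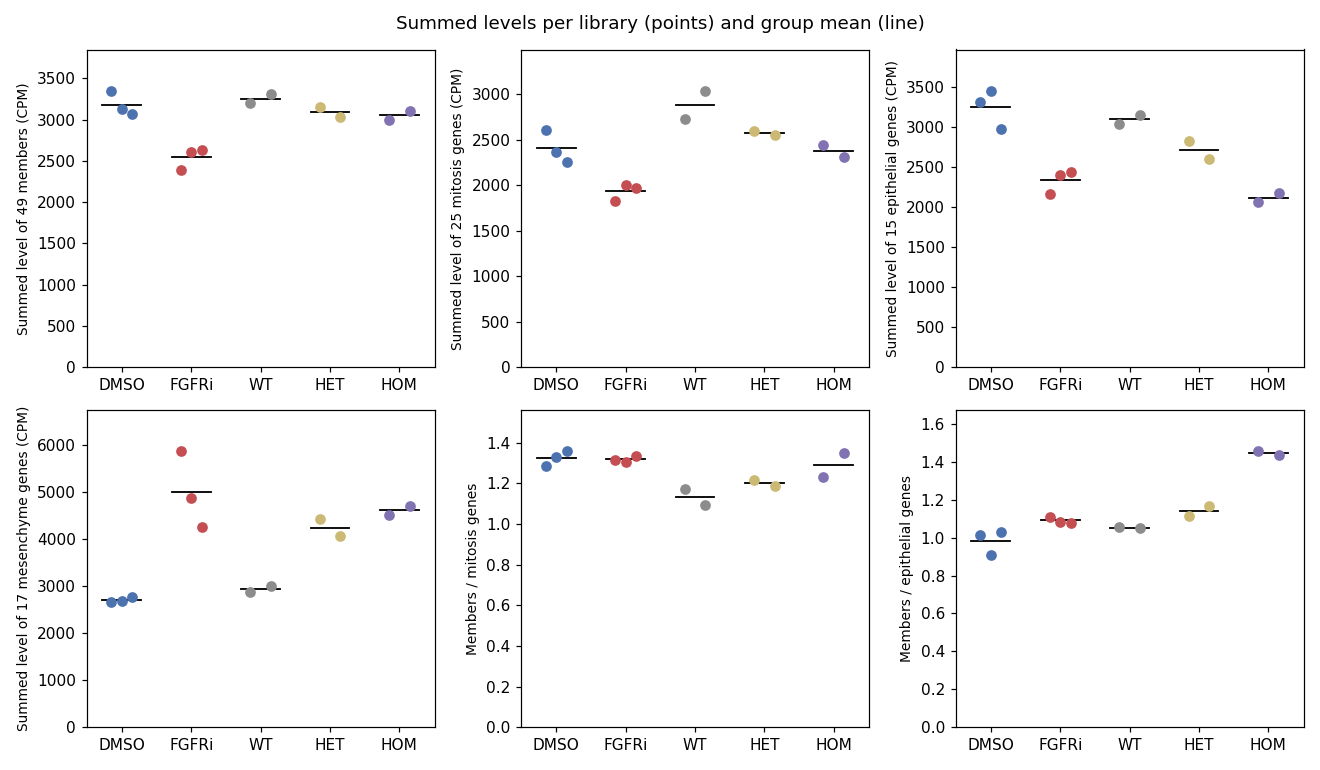
Summed CPM per library (points) and group mean (lines) of the 49 replication genes, 25 mitosis genes, 15 epithelial genes and 17 mesenchyme genes, and the ratio of the replication genes to the mitosis and epithelial genes (y axes, all from 0) in the 5 groups (x axes). The FGFRi points of the replication genes lie between 2394 and 2630 CPM, below all other libraries, and the ratio of the replication genes to the epithelial genes is highest in the HOM libraries, at 1.43 and 1.46.

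Control groups were compared in the same way. In HET against WT, 0 of the 49 genes were called (0.372% of all genes were lower and 0.851% higher), with 5 lower and 0 higher at an unadjusted p under 0.05 (5.11% and 8.41% of all genes). In DMSO against WT 0 were called (0.984% lower and 1.27% higher), with 1 lower and 1 higher at an unadjusted p under 0.05 (6.89% and 7.15% of all genes). DESeq2 and limma-voom called 0 in both. The smallest adjusted p in DMSO against WT was that of Ung, with 35.3, 33.5 and 36.8 CPM in DMSO and 27.1 and 30.4 in WT libraries, which did not overlap (log2 change 0.29, adjusted p = 0.259).

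Whether the inhibitor and the deletion differed in their effect was tested in the same model as the difference of both changes, which share no library. The difference was negative for 44 of the 49 genes and for 50.9% of all genes, meaning a lower change with FGFRi than in HOM, and 3 were called, all negative (1.41% of all genes were called in that direction and 1.36% in the other). At an unadjusted p under 0.05, 22 of the 49 were negative and 0 positive, where 8.71% and 7.86% of all genes were. Ung had a difference of -0.75 (SE 0.15, adjusted p = 0.0143). Its level was 27.1 and 30.4 CPM in WT, 32.0 and 29.7 in HET glands and 34.2 and 35.5 in HOM glands, with both HOM values above the controls, whereas its FGFRi values lay below DMSO. For Pold2 the difference was -0.58 (SE 0.13, adjusted p = 0.0292), with 45.9 and 50.9 CPM in WT, 51.9 and 48.1 in HET glands and 48.9 and 54.8 in HOM glands, which overlapped. For Mcm5 it was -0.42 (SE 0.10, adjusted p = 0.0378), with both HOM libraries just above the controls: 126 and 129 CPM in WT, 129.8 and 116 in HET glands and 130.1 and 138 in HOM glands. Of these, Mcm5 did not pass on the epithelial scale (-0.40, adjusted p = 0.0853), while Pold2 (-0.56, adjusted p = 0.0309) and Ung (-0.75, adjusted p = 0.0282) did, where 0.801% of all genes were called negative and 0.561% positive. Without HOM 2, none of the 3 passed (adjusted p of 0.219, 0.215 and 0.104 for Mcm5, Pold2 and Ung). Without any one of DMSO 1, DMSO 2, FGFRi 1, FGFRi 2, WT 1, WT 2 or HET 2, 1 gene passed, Ung, and without HOM 1 Mcm5 did not (adjusted p = 0.0625).

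Most of the genes with a lower change under FGFRi did not pass this test. Mcm7 had a log2 change of -0.44 with FGFRi and 0.00 in HOM, with a difference of -0.44 (95% interval -0.72 to -0.16, adjusted p = 0.0928). The values of Uhrf1 were -0.48 and -0.09, with a difference of -0.38 (interval -0.63 to -0.14, adjusted p = 0.0880). Those of Rrm2 were -0.47 and -0.05, with a difference of -0.42 (interval -0.68 to -0.17, adjusted p = 0.0779). Rrm1 had -0.28 and -0.25, with a difference of -0.03 (interval -0.24 to 0.18). Across the 49 genes, Pearson's r of both changes was 0.18 and Spearman's rho 0.15, given as a description because the genes share libraries and depth.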

How the data were processed

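Reads of ribosome-depleted total RNA were aligned with STAR to GRCm39 after bcl2fastq, per the submitters' processing notes. Which program counted the reads, whether by strand, and with which annotation is not given in the sources used here. The deposited table holds raw counts per Ensembl gene, which the authors did not normalize, per the values (whole numbers with unequal totals). Of 52636 identifiers, 52403 matched a symbol in the gene name table. Counts were tested with edgeR 4.0.16 in R 4.3.3 (TMM, filterByExpr with a minimum count of 10, quasi-likelihood F test, 1 coefficient per group over all 12 libraries). P-values were adjusted by Benjamini and Hochberg over all 15859 genes tested, with calls at an adjusted value under 0.05. Epithelial scaling replaced the library size by the summed counts of 15 epithelial genes. DESeq2 1.42.0, limma 3.58.1 voom, other scalings, no filter, a sex covariate, a replicate block and leaving out each library were alternatives. All 49 genes could be named, and of the other replication, E2F and mitosis lists up to 4 genes per comparison in order of p. Orc3, Orc4, Orc5, Pole3 and Pole4 were named besides, as subunits of complexes that hold some of the 49. Cell type genes were named where they had 0 counts or where a result turned on them. The genes and the lists were chosen with earlier results of these data known. Promoter sequences come from RefSeq (GRCm38.p6), a build other than that of the counts, and were matched by symbol. Near-copies were sought with minimap2 2.31-r1302. Exon lengths, over all annotated exons of a gene joined, and exon overlaps were taken from GENCODE M21.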

Additional observations from a re-analysis of the deposited data

Results flagged for a closer look

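For 3 genes the FGFRi effect and the HOM effect differed in the model's own test of the difference (edgeR, adjusted over all genes): Mcm5 (-0.42, adjusted p = 0.0378), Pold2 (-0.58, adjusted p = 0.0292) and Ung (-0.75, adjusted p = 0.0143). Over 25 alternatives, Ung kept its call in 23 (-1.20 to -0.64, adjusted p 0.000285 to 0.177), Pold2 in 14 (-1.03 to -0.50, adjusted p 0.00459 to 0.409) and Mcm5 in 10 (-0.88 to -0.35, adjusted p 0.00958 to 0.705). No group has more than 3 libraries, so that single libraries were not tested as outliers.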

How the results depend on the processing

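With FGFRi, 0 genes were called lower with library totals and with both epithelial scalings, and 49 with mesenchymal scaling. With mesenchymal scaling 11562 of all genes were called in either direction. Higher calls were 16 with summed epithelial counts and 13 with the median of epithelial ratios, where 8911 and 8197 of all genes were called in either direction. The median change was then 0.18 and 0.14, and -1.18 with mesenchymal scaling. Leaving out each library gave 16 to 28 lower genes and medians of -0.32 to -0.24, the extremes nearest to 0 being those without FGFRi 1. Other counts were 20 without the filter (19 shared), 20 with both groups alone, 22 with sex as a covariate, 23 with DESeq2 and 27 with voom. Of all genes, 3298, 2506, 2153, 2698 and 3364 were called in either direction in these fits. The sex covariate amounts to leaving out DMSO 2. None of the 27 genes turned positive in the 24 settings without epithelial scaling. The 27 were picked for negative changes in these same libraries, so this describes the fits and is no independent check. With summed epithelial counts 19 turned positive: Cdc6 0.12, Cdt1 0.0949, Chaf1b 0.23, Dnmt1 0.0705, Dut 0.0441, Lig1 0.12, Mcm10 0.12, Mcm2 0.13, Mcm3 0.16, Mcm4 0.24, Mcm5 0.15, Mcm6 0.25, Mcm7 0.0246, Pold3 0.21, Pole2 0.0471, Prim1 0.20, Rfc2 0.17, Rrm1 0.19 and Tk1 0.0923. With the median of epithelial ratios the values were Cdc6 0.0727, Cdt1 0.0521, Chaf1b 0.19, Dnmt1 0.0292, Dut 0.00346, Lig1 0.0833, Mcm10 0.0766, Mcm2 0.0918, Mcm3 0.12, Mcm4 0.20, Mcm5 0.11, Mcm6 0.21, Pold3 0.17, Pole2 0.0045, Prim1 0.16, Rfc2 0.13, Rrm1 0.15 and Tk1 0.0508. These scalings moved the median of all genes by construction (0.46 epithelial, -0.90 mesenchymal).

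For HOM, the median was 0.11 with library totals, 0.42 and 0.33 with epithelial scaling and -0.47 with mesenchymal scaling, and -0.05 to -0.02 with each library left out. Higher calls were 44 and 31 with epithelial scaling, and 1 with structural RNA genes removed, with protein-coding genes, with voom and with WT alone. With each library left out they were 0 to 1, the call appearing without DMSO 1 or DMSO 2. Lower calls were 36 with mesenchymal scaling, 1 with protein-coding genes, 1 with DESeq2, and 2 with voom and with WT alone. Mesenchymal scaling called 43 genes lower in HET against WT. Shares of all genes called were counted for HOM only with summed epithelial counts and with WT or HET alone, as given above. They were not counted for the other HOM settings, nor in this paragraph for HET against WT and the difference of effects. Counts without such a share cannot be set against all genes. The difference of effects had 0 lower calls with library totals, 31 with mesenchymal scaling, 5 without the filter, 5 with DESeq2, and 0 (without HOM 2) to 5 (without FGFRi 3) with each library left out. Where this left 1 library in a group, that library was assumed to vary like the others. Causes other than the construction of a scaling were not tested.

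Deviations of same-numbered libraries from their group means had r from -0.15 to 0.26, over 0.1 in 2 of 21 pairs. For DMSO and FGFRi r was -0.09, -0.12 and -0.03. In groups of 2 libraries both deviations mirror each other, so these pairs are not independent. The check showed no pairing by number and cannot exclude one. With the replicate block 25 genes were lower with FGFRi (24 shared) and 1 difference of effects was called. With the WT numbers crossed in the block, an alternative chosen after seeing the data, the counts were 25 and 1. Of all genes, 2837 and 3077 were called with FGFRi in either direction in these fits. That share was not counted for the difference of effects.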
